A study of Auxenochlorella pyrenoidosa with 12 samples.

Results

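A set of 50 transcripts of the green alga Auxenochlorella pyrenoidosa had lower mean levels at each lower step of nitrate supply. These 50 of 16413 measured transcripts were chosen by their levels: a mean of at least 5 CPM (counts-per-million) at full nitrate, a ratio of at least 1.2 between each group and the next lower one, and a ratio of at least 3 between full nitrate and none, with 0.1 CPM added to every mean. These ratios run higher nitrate over lower, while all log2 ratios below run lower over higher and are negative where the lower nitrate group was lower. The 50 were 0.464% of the 10786 transcripts at 5 CPM or more at full nitrate, and 7.11% of the 703 of these that were at least 3-fold lower without nitrate.

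RNA of strain SHOU-1002 was sequenced from cultures of this unicellular alga at 4 NaNO3 levels to describe how its transcripts respond to nitrogen supply and lipid storage. The groups were N0 (0 g/L NaNO3), N0.5 (0.5 g/L), N1 (1 g/L) and N1.5 (1.5 g/L, the control), with 3 biological replicates each, all of 1 strain. No source used here gives the time of harvest or the other culture conditions, so growth stage and NaNO3 level cannot be told apart. The transcripts carry names of the kind that the assembler Trinity gives to contigs, and the files pair none of them with a gene name or a function. A transcript here may be an isoform or a fragment of a gene, and what the 50 encode is not described.

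As background, green algae take up nitrate through membrane transporters, reduce it to nitrite and then to ammonium, and bind the ammonium into glutamine and glutamate. In the green alga Chlamydomonas, genes of this route are expressed when nitrate is present and ammonium is not. Cells short of nitrogen recycle protein, take down parts of the photosynthetic apparatus and store carbon as starch and triacylglycerol. Whether any of the 50 transcripts belongs to these routes was not tested.

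Library totals ran from 22027761 to 24383226 estimated counts, and CPM is a share of such a total, so that in these bulk cultures fewer cells of a type and less RNA per cell cannot be told apart. In the CPM used by the rule the median transcript also shifted. Among the 10786 transcripts at 5 CPM or more in N1.5, the median log2 ratio was -0.04 for N0 against N0.5 and -0.16 for N0.5 against N1. It was -0.01 for N1 against N1.5 and -0.25 for N0 against N1.5. These transcripts were picked by their N1.5 level. Over all 15429 transcripts tested below, scaled by library totals only, the medians were -0.11, -0.03, -0.01 and -0.19 in the same order. With TMM scaling, which removes most of such a shift, the rule took 36 transcripts, all among the 50. In 4 libraries, N0.5 replicates 1 and 2, N1 replicate 1 and N1.5 replicate 3, 35 transcripts nearly restricted to N0 were present at a median of 0.746 to 1.201% of their N0 level, against 0.133 to 0.479% in the other 5 libraries with nitrate. Without these 4 libraries the rule took 61 transcripts, 42 of them among the 50.

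The members' levels are the values that chose them, and they are given here as a description. The median member stood at 13.5% of its N1.5 level in N0, at 42.3% in N0.5 and at 75.5% in N1. The fall without nitrate was between 3.002-fold and 169.6-fold, with a median of 6.99-fold: 40 members were at least 4-fold lower in N0 than in N1.5, 21 at least 8-fold and 9 at least 32-fold. In N0, 10 members averaged below 1 CPM, and 0 of the 50 did so in any other group. Together the members took 0.0408% ± 0.0026 of a library's counts in N0, 0.142% ± 0.0069 in N0.5, 0.273% ± 0.0074 in N1 and 0.427% ± 0.030 in N1.5 (SD, n = 3 each). The 8 members at 100 CPM or more in N1.5 held between 70.6% of this sum in N0 and 75.7% in N1.5. In N0 these 8 were uneven: the highest averaged 183.9 CPM, the next 51.3 CPM and the lowest 1.64 CPM.

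**Figure D1:**
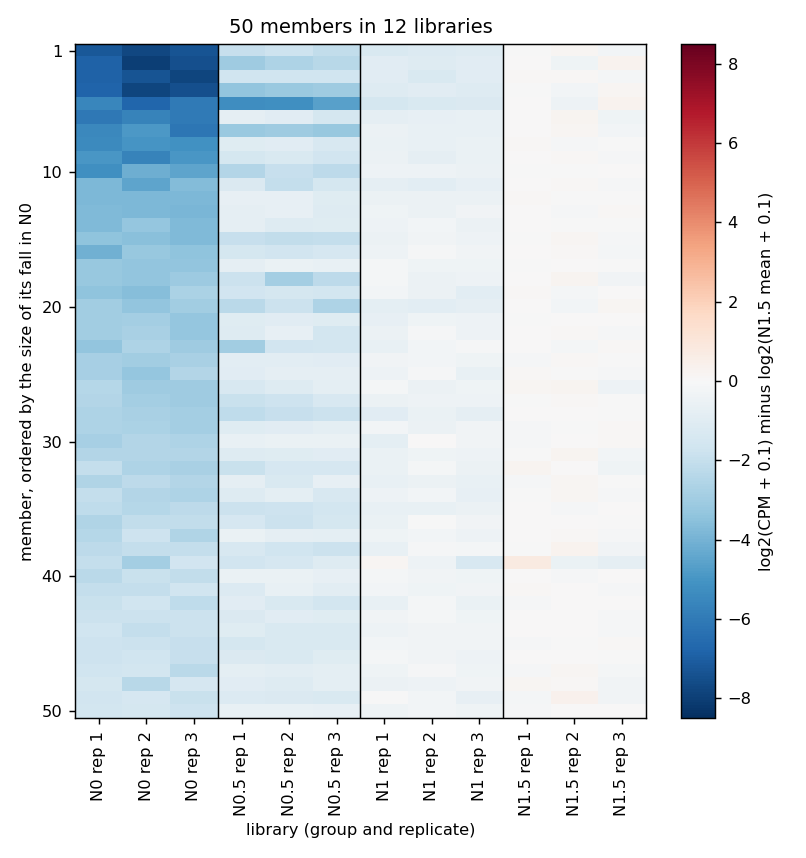
Level of each member (rows, ordered by the size of its fall in N0) in each library (columns, from N0 on the left to N1.5 on the right), as log2(CPM + 0.1) minus the log2 of the member's N1.5 mean + 0.1. The rows grade from deep blue in N0 through paler blue in N0.5 and N1 to near white in N1.5, and the 10 members with the largest falls stand out in N0.

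The member with the highest CPM at full nitrate, TRINITY_DN7301_c0_g1_i1_2, had its largest step at N0.5 against N1. It had 199, 164 and 189 CPM in N0 replicates 1, 2 and 3, and 249, 262 and 304 CPM in N0.5. It had 581, 568 and 632 CPM in N1, and 927, 822 and 927 CPM in N1.5. The 4 groups did not overlap, and within N0, N1 and N1.5 alike replicate 2 was the lowest library. On the log2 scale its fitted changes were -0.47 for N0 against N0.5 (SE 0.10), -1.06 for N0.5 against N1 (SE 0.10) and -0.57 for N1 against N1.5 (SE 0.10). All 3 passed edgeR's quasi-likelihood test at an adjusted p under 0.05, as did the change of -2.10 for N0 against N1.5 (SE 0.11). Without N0 replicate 2 the change for N0 against N0.5 was -0.29 and still passed. The change at N1 against N1.5 was -0.52 without the 4 libraries named above and then did not pass, the only one of 18 alternative analyses in which it did not. Per length it averaged 362 FPKM (the deposited level scaled to length and library total) in N1.5, which is rank 3 of the 50 members.

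The member with the most even steps on the log2 scale was TRINITY_DN9474_c0_g1_i1_2, a transcript of low level. It had 2.08, 1.12 and 2.20 CPM in N0, 3.04, 2.72 and 3.31 CPM in N0.5, 4.19, 4.40 and 4.86 CPM in N1, and 6.68, 6.52 and 4.94 CPM in N1.5. No libraries of neighbouring groups overlapped, though N1.5 replicate 3 lay just above the highest N1 library. Its fitted log2 changes were -0.63 for N0 against N0.5 (SE 0.26), -0.50 for N0.5 against N1 (SE 0.25) and -0.41 for N1 against N1.5 (SE 0.24). Of these only the first passed edgeR's test, and it was lost in 11 of 18 alternative analyses. Without N0 replicate 2, its lowest library, the change for N0 against N0.5 was -0.29 and did not pass, and that for N0.5 against N1 was -0.54 and passed. The change of -1.54 for N0 against N1.5 (SE 0.25) passed with all libraries, and it was -1.27 and passed without N0 replicate 2.

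**Figure D2:**
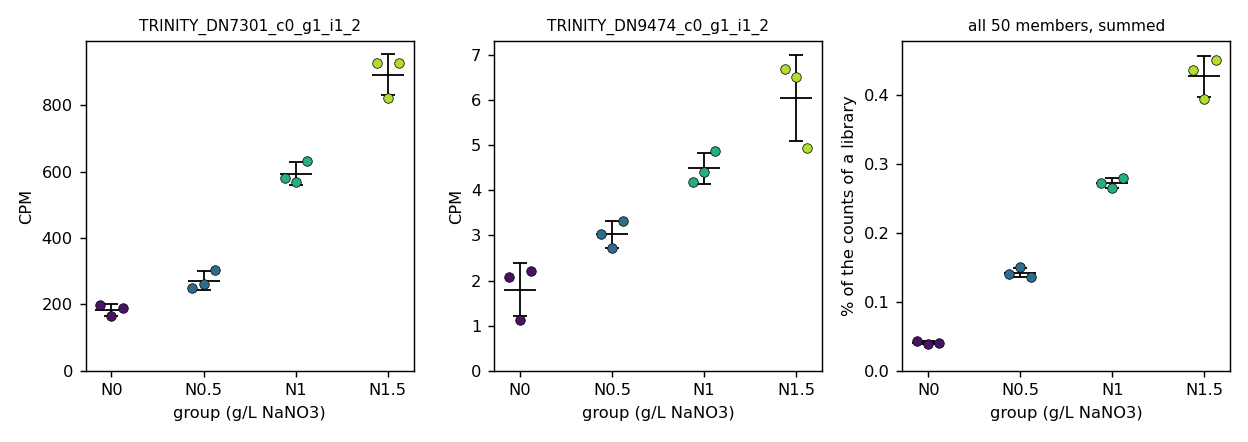
CPM of the 2 named members in each library (left and middle) and the share of each library's counts taken by all 50 members (right), by group from N0 to N1.5. Points are single libraries, and bars give the mean and SD of 3; the summed share averages 0.0408% in N0 and 0.427% in N1.5.

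The size of the 3 steps differed between members. On the log2 scale the median step was -1.50 for N0 against N0.5, -0.78 for N0.5 against N1 and -0.40 for N1 against N1.5. Relative to the median of all transcripts at 5 CPM or more in N1.5, these were -1.46, -0.62 and -0.39. That set was picked by its N1.5 level, and the medians over all tested transcripts given above differ from its medians. In ratio, the change without nitrate was the largest of the 3 in 31 members, the change between N0.5 and N1 was the largest in 19, and that between N1 and N1.5 in 0. In absolute CPM the steps were closer: the difference at N0 against N0.5 was the largest in 20 members, that at N0.5 against N1 in 20 and that at N1 against N1.5 in 10. N0.5 had 33.3% of the control's NaNO3, and 33 members stood above that share of their N1.5 level there. N1 had 66.7% of it, and 37 members stood above that share.

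The 31 members with their largest ratio at the loss of nitrate kept a median of 49.6% of their N1.5 level in N0.5 and 11.5% in N0. The member second in CPM was of this kind. It had 54.1, 51.3 and 48.6 CPM in N0, and 419.5, 444 and 329 CPM in N0.5. It had 551, 514 and 575 CPM in N1, and 728, 669 and 762 CPM in N1.5. Its N0 libraries lay far below all others, while the other 3 groups lay closer together without overlapping. Its log2 change at N1 against N1.5, -0.38 (SE 0.11), did not pass edgeR's test.

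The other 19 members had a median of 31.5% of their N1.5 level in N0.5 and 20.6% in N0, so that most of their fall was already present at 0.5 g/L. The largest single change of this kind was -3.65 on the log2 scale. That member had 3.30, 1.37 and 2.30 CPM in N0 and 3.97, 4.26 and 6.29 CPM in N0.5, against 56.0, 63.0 and 66.2 CPM in N1 and 160.4, 116 and 197 CPM in N1.5. N0.5 and N0 both lay far under N1, and the groups did not overlap. Per length, the highest of all members was not of this kind, and had its largest ratio at N0 against N0.5. It reached 908 FPKM in N1.5 and was also the shortest, with an estimated length of 302 bases. It had 2.37, 1.101 and 1.45 CPM in N0, 26.4, 30.1 and 33.9 CPM in N0.5, 128, 139 and 129.7 CPM in N1, and 274, 238 and 310.2 CPM in N1.5. Its libraries did not overlap at any step, and those of N0 were all close to 0.

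The steepest falls were in 4 members whose N0 levels were between 0.482 and 0.599% of N1.5. They include the member just described. In N1 these 4 stood at 44.1 to 49.7% of N1.5, against a median of 75.5% over all 50 members. The steepest had 0.537, 0.330 and 0.466 CPM in N0, and 23.2, 26.8 and 21.5 CPM in N0.5. It had 37.0, 41.6 and 43.5 CPM in N1, and 91.8, 105.6 and 79.2 CPM in N1.5. Its log2 change was -7.41 for N0 against N1.5, of which -5.46 lay at N0 against N0.5. Another of the 4, of rank 3 in CPM, had 5.04, 2.16 and 3.25 CPM in N0, 71.4, 95.3 and 115 CPM in N0.5, 303, 273 and 303 CPM in N1, and 591, 451 and 726 CPM in N1.5. Its groups did not overlap, but its libraries spread more within groups than those of the 2 members above it in CPM, with replicate 2 lowest in N0, N1 and N1.5. The remaining one of the 4 had 0.576, 0.383 and 0.251 CPM in N0, 24.8, 24.3 and 24.1 CPM in N0.5, 40.6, 32.8 and 40.7 CPM in N1, and 83.9, 83.7 and 70.8 CPM in N1.5. It was close to 0 in every N0 library, and its 3 N0.5 libraries were nearly equal.

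The median fall was largest among the members at 100 CPM or more in N1.5, a level that also enters the fall. The 12 members at 5 to 10 CPM in N1.5 had a median log2 change of -2.54 for N0 against N1.5, the 30 at 10 to 100 CPM one of -2.77 and the 8 at 100 CPM or more one of -4.48. The most abundant of these 8, TRINITY_DN7301_c0_g1_i1_2, had -2.28 from its group means. Per length, the 50 members had median levels of 2.14 FPKM in N0, 6.29 FPKM in N0.5, 10.6 FPKM in N1 and 13.7 FPKM in N1.5. The lowest member in N1.5 had 4.71 FPKM there.

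**Figure D3:**
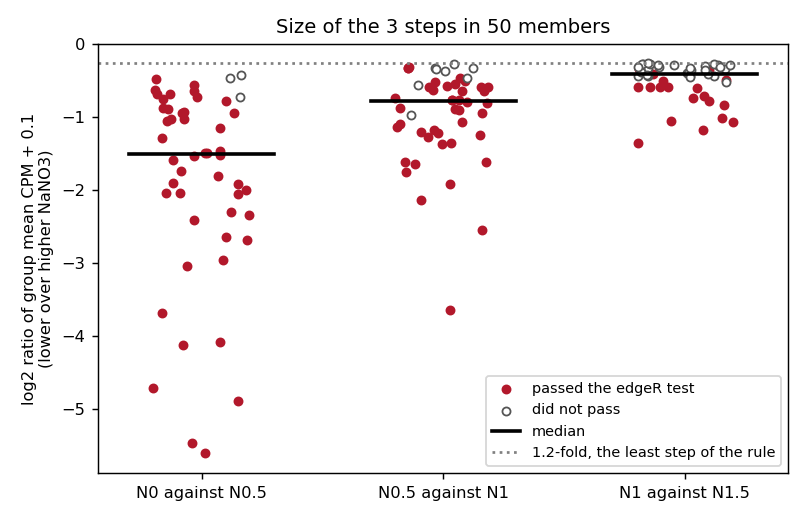
Log2 ratio of group mean CPM + 0.1 for each of the 50 members at each step, lower NaNO3 over higher; filled points passed edgeR's test at an adjusted p under 0.05 and open points did not. The medians (lines) are -1.50, -0.78 and -0.40, and most open points lie at the step between N1 and N1.5, close to the least step of the rule (dotted).

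Whether the steps were larger than the spread between libraries was read from edgeR's quasi-likelihood test, fitted to all 12 libraries and adjusted over 15429 tested transcripts. All 50 members passed the filter on low counts. The rule used these same contrasts, so the counts are not evidence for the pattern. For N0 against N0.5, 47 members were called lower, where 33.1% of all tested transcripts were. For N0.5 against N1 it was 42 members, where 31.3% of all were called lower, and for N0 against N1.5 all 50, where 31.2% of all were. For N1 against N1.5 it was 19 members, where 3.6% of all were called lower. Without the 4 libraries named above, N0.5 rests on 1 library that is assumed to vary like the rest. Then 41 members were called lower for N0 against N0.5 (26% of all tested transcripts), 33 for N0.5 against N1 (23.8%), 9 for N1 against N1.5 (1.39%) and 50 for N0 against N1.5 (27.6%).

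At the smallest reduction of nitrate, N1 against N1.5, most members thus did not pass the test, and these were mostly small steps of transcripts with low levels. The 31 members not called there had a median log2 step of -0.32 and a median level of 10.6 CPM in N1.5. The 19 called there had a median step of -0.60 and a median level of 70.5 CPM. At all 3 steps 17 members were called lower, where 0.194% of all tested transcripts, or 30, were. Of the other members, 25 were called at 2 steps, 7 at 1 and 1 at 0. The 13 transcripts called at each step that are not members all had 5 CPM or more in N1.5, and 12 of them were less than 3-fold lower in N0.

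Non-overlap of the libraries, which uses no adjusted p, held for more members than the test called at each single step. All libraries of the lower group lay below all of the higher one in 49 members for N0 against N0.5 (39.1% of all tested transcripts), in 47 for N0.5 against N1 (37.1%) and in 38 for N1 against N1.5 (14.5%). For N0 against N1.5 it was all 50 (43%). At all 3 steps this held for 37 members, where 1.24% of all tested transcripts did so. The member called at 0 single steps had 4.41, 2.46 and 5.96 CPM in N0, 6.06, 6.84 and 8.46 CPM in N0.5, 20.99, 13.9 and 7.17 CPM in N1, and 31.8, 12.8 and 11.1 CPM in N1.5. Its N1 and N1.5 libraries overlapped widely, replicate 1 being the highest in both groups, and it had the largest spread of the 50 members. Another member had 2.85, 5.29 and 4.13 CPM in N1 and 4.68, 5.31 and 5.37 CPM in N1.5, so that its N1 libraries reached into N1.5. Its N0.5 libraries, at 3.25, 3.48 and 3.35 CPM, lay above the lowest N1 library, while N0 was clearly apart at 0.644, 0.815 and 0.761 CPM.

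Many members sat close to the limits of the rule. The smallest ratio of N1.5 to N1 among members was 1.201, and the largest among transcripts that missed the rule on this ratio alone was 1.1997. Within 10% above that limit lay 25 members, and 42 transcripts that met every other condition lay within 1.1-fold below it. For N1 over N0.5 the nearest values were 1.21 inside and 1.19 outside, for N0.5 over N0 1.34 and 1.15, for N1.5 over N0 3.002 and 2.95, and for the N1.5 level 5.12 and 4.13 CPM. When each library was left out in turn the rule took between 42 and 57 transcripts, and 26 of the 50 members were taken every time.

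The rule was also applied to the 8 libraries of 2 replicate numbers. The result was then read in the 4 libraries of the number left out. The rule and its limits were set with earlier results of these data known, so this reading is not independent of the left-out libraries. A replicate number here only names a library. Chosen without number 1, 50 transcripts met the rule, and 40 of them (80%) were lower at each of the 3 steps in the libraries numbered 1, where 10.5% of transcripts at 5 CPM or more in N1.5 did so. Chosen without number 2, it was 44 of 53 (83.0%) beside 9.75%, and without number 3, 42 of 51 (82.4%) beside 10.5%. Among transcripts at least 3-fold lower in N0 that were not chosen, between 20.4 and 21.4% were lower at each step. Those transcripts had missed a step of the rule in the choosing libraries, so their low share follows in part from that choice. With 1 library a group in the reading there is no test of these shares.

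In the libraries left out the median log2 change for N0 against N0.5 was -1.43, -1.44 and -1.49 when numbers 1, 2 and 3 were left out, where the choosing libraries had -1.45, -1.28 and -1.28. For N0.5 against N1 it was -0.69, -0.90 and -0.80, where the choosing libraries had -0.66, -0.81 and -0.73. For N1 against N1.5 it was -0.52, -0.31 and -0.38, where the choosing libraries had -0.44, -0.40 and -0.39. The medians were thus of like size, but single transcripts scattered. All 3 steps reached 1.2-fold in 26, 27 and 25 transcripts of those chosen, beside 0.797, 0.705 and 0.751% of all at 5 CPM or more. At N1 against N1.5, 48 of 50 transcripts were lower in the libraries numbered 1, beside 54.6% of all at 5 CPM or more. It was 48 of 53 (52.5% of all) in those numbered 2 and 43 of 51 (47.1%) in those numbered 3. For N0 against N0.5 the counts for numbers 1, 2 and 3 were 46, 50 and 51, beside 53.4, 48.3 and 54.9% of all. For N0.5 against N1 they were 45, 52 and 50, beside 59.5, 63.2 and 59.7%.

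**Figure D4:**
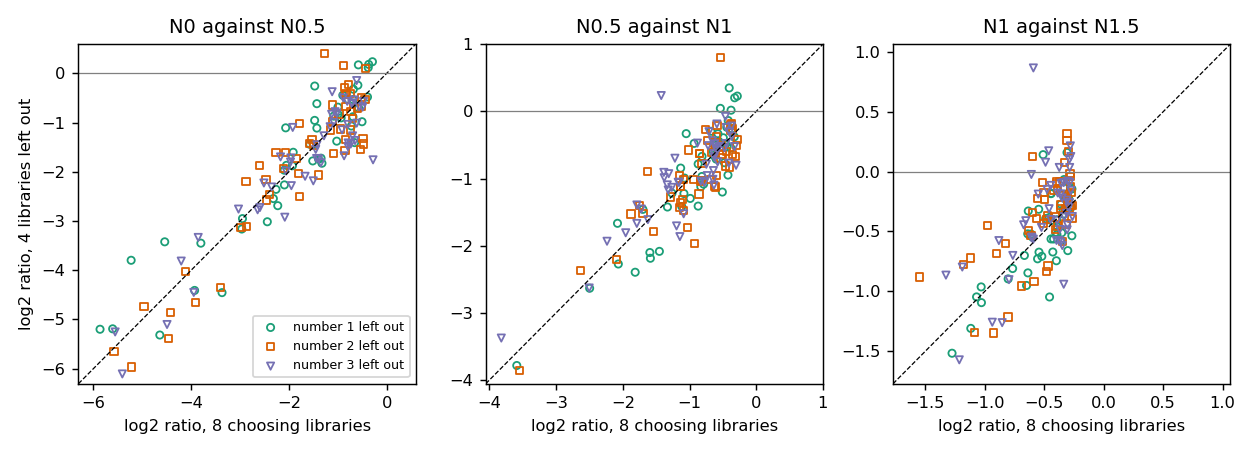
Log2 ratio of each chosen transcript in the 4 libraries left out (vertical) against its ratio in the 8 libraries that chose it (horizontal), for each step and each replicate number left out; the dashed line marks equal values. Points follow the dashed line at N0 against N0.5 and N0.5 against N1. At N1 against N1.5 most lie in a cloud near the limit of the rule. Every step has some points above 0.

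Length and spread were not used by the rule, and they are given as a description without a test. The members had a median estimated length of 1098 bases, against 1593 bases for the 653 other transcripts at least 3-fold lower in N0 and 1659.9 bases for all at 5 CPM or more in N1.5. Of the members, 42% were under 1000 bases, against 17.5% of the 653 and 16.7% of all. Lengths are the count divided by the FPKM and the library total. The SD of log2(CPM + 0.1) within groups had a median of 0.23 in members, against 0.16 in the 653 and 0.10 in all at 5 CPM or more. Level enters this spread: members at 5 to 10 CPM in N1.5 had a median SD of 0.27, where the 653 had 0.26 and all transcripts of that level 0.23. Among transcripts at 100 CPM or more it was 0.25 in the 8 members, 0.10 in 103 of the 653 and 0.08 in all 2011. Taken group by group, these medians were 0.33, 0.10 and 0.07 in N0, 0.22, 0.08 and 0.05 in N0.5, 0.08, 0.07 and 0.07 in N1, and 0.15, 0.07 and 0.06 in N1.5. The spread of the abundant members was thus close to that of the others in N1 and wider in the other 3 groups. Abundance here means the level in N1.5 only. The 8 members had group means of 1.64 to 183.9 CPM in N0 and of 4.84 to 397.7 CPM in N0.5. In N0 and N0.5, level and membership can therefore not be told apart in this spread.

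**Figure D5:**
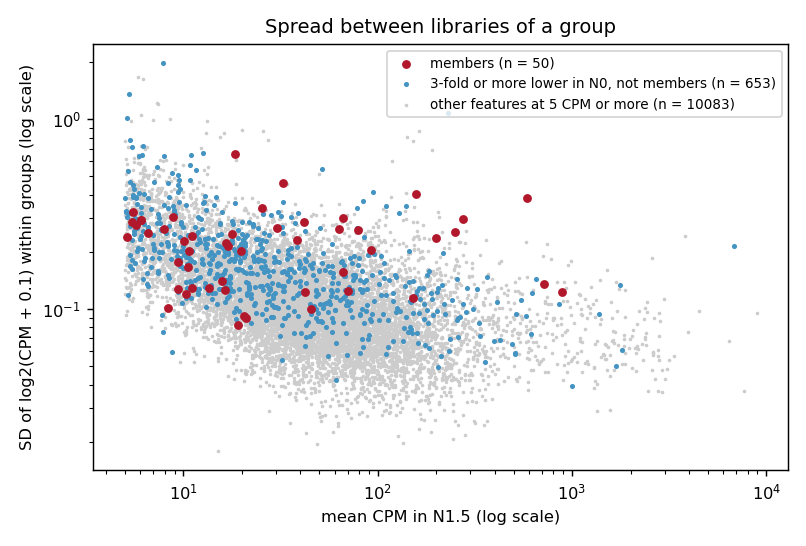
SD of log2(CPM + 0.1) within groups, pooled over the 4 groups, against mean CPM in N1.5, both on log scales, for members (red), other transcripts at least 3-fold lower in N0 (blue) and the remaining transcripts at 5 CPM or more (grey). The 8 members at 100 CPM or more have a median SD of 0.25, and all transcripts of that level one of 0.08.

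The library with the lowest value of a group was also read, as a description without a test. Of the 8 members at 100 CPM or more, 7 had their lowest N1.5 value in replicate 2, where 44.5% of all 2011 transcripts at that level did. In N1, 6 of the 8 were lowest in replicate 2 (52.5% of all), and in N0 6 of the 8 were lowest in replicate 2 (34.1% of all). In N0.5, 4 of the 8 were lowest in replicate 1 (42.1% of all), 4 in replicate 3 (37.1% of all) and 0 in replicate 2 (20.8% of all). The 42 less abundant members ran otherwise in N1.5, where 26 were lowest in replicate 3 (49.6% of all at 5 to 100 CPM) and 6 in replicate 2 (26.1%). What set the lowest library was not tested.

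The other 653 transcripts that were at least 3-fold lower in N0 had, in the median, levels near those of the control while some nitrate was supplied. Their median level was 103% of that in N1.5 in N0.5 (quartiles 68.5 and 152%) and 91.4% in N1 (quartiles 80.9 and 103.4%). Single transcripts thus lay well above or below the control in N0.5, and 342 of the 653 were higher there than in N1.5. The step at N0.5 against N1 fell short in 471 of them and the step at N1 against N1.5 in 462, but that at N0 against N0.5 in 44. The ratio of N1.5 to N1 was the only condition missed in 139 transcripts and that of N1 to N0.5 the only one in 180, and 151 of the 653 were lower at every step in their means without meeting the rule. These differences follow from the rule. In size of fall in N0 the members had a median log2 change of -2.81 and the 653 of -2.03.

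By name, the 50 members came from 50 different Trinity genes. Names end in a number from 1 to 4 that the files do not explain. Transcripts alike in name but for this number differed at least 1.1-fold in estimated length in 89.6% of 2997 pairs, so a shared name does not mark the same sequence. No 2 of the 16413 transcripts shared both the Trinity gene and the final number, and no second isoform of a member could therefore be compared. The final number was 1 in 8 members, 2 in 15, 3 in 17 and 4 in 10, which is 0.266, 0.558, 0.613 and 0.431% of the transcripts at 5 CPM or more with that number.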

How the data were processed

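Poly(A)-selected RNA was sequenced in 12 libraries, 3 per NaNO3 group. The tools listed, without a role, per the submitters' processing notes are Bowtie2 2.4.5, DESeq and Trimmomatic 0.40. Counter, assembly and annotation were not given in the sources used here. Per transcript, the authors deposited estimated counts, of which 2.41 to 3.66% per library were whole (within 0.001), and FPKM values, scaled by the authors to length and library total.

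CPM is the count over the library's total. Counts were rounded and tested with edgeR 4.0.16 in R 4.3.3 (TMM factors 0.908 to 1.07, filterByExpr by group, 1 fit over 12 libraries without covariates, two-sided, Benjamini-Hochberg over all tested transcripts, adjusted p under 0.05). Each SE is the size of the fitted log2 change over the square root of the test's F value. DESeq2 1.42.0 was an alternative. Alternative scalings, filters, rule limits and left-out libraries were tried. Members, lists and tests were chosen with earlier results of these data known. At most 2 members are named: the highest in N1.5 CPM, and the most even in its steps. Planned gene lists could not be applied, as names carry no function. Other members described were chosen after their values were seen. P-values weigh a group difference against the spread between these libraries.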

Additional observations from a re-analysis of the deposited data

How the results depend on the processing

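Of 169 alternative counts, medians and shares of the members, 158 stayed within the replicate spread or within 1.5 times the reported count. A count within 1.5 times can still hide lost members, as with TMM scaling and without the 4 libraries with a trace of N0 transcripts. Among all 313 alternatives, 0 of the log2 changes reversed sign, while counts and shares have no sign to reverse. The members were chosen as falling in these libraries, so the lack of reversals is not evidence for the pattern. The number of members moved with the least step ratio, to 102 at 1.1 and 9 at 1.5. It was between 42 and 57 with each library left out. The members called lower for N1 against N1.5 were 9 without the 4 libraries with a trace of N0 transcripts, and between 13 and 21 with single libraries left out. The median log2 change of the members for N0 against N1.5 was -2.63 with TMM, -2.59 with RLE and -2.32 with 1 CPM added to every mean, and that for N0 against N0.5 was -1.18 with 1 CPM added. Leaving out single libraries gave -2.87 to -2.74 for N0 against N1.5. The share of chosen transcripts lower at each step in the libraries left out was 81.8% over the 3 choices, 80% for number 1, and 50.6% when each step had to reach 1.2-fold. TMM scaling gave summed shares of 0.0440% in N0 and 0.263% in N1. The cause of these differences was not tested.

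The replicate numbers were not taken to pair the libraries: over 18 pairs of same-numbered libraries the correlation of deviations was between -0.16 and 0.27 and above 0.1 in 4. Of these 4, 3 were the pairs of replicate 2 among N0, N1 and N1.5 (0.23 for N0 with N1, 0.10 for N0 with N1.5 and 0.27 for N1 with N1.5), and 4 of 12 libraries correlated best with their own number. With the replicate number as a block, 47, 42, 19 and 50 members were called lower for N0 against N0.5, N0.5 against N1, N1 against N1.5 and N0 against N1.5, the same counts as without it. The median steps without the 4 libraries were computed after seeing the data and stayed within the replicate spread. Low counts limit the weaker members: the lowest count of a member in a library was 3.53.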
